A study of Homo sapiens with 4 samples.

Results

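The genes described here are 10 members of the BCL2 family, the proteins that decide whether the outer mitochondrial membrane is opened in apoptosis. They were chosen by name from 57820 counted genes, and 268 of 916504 splice junctions lie in them. The members are the survival genes BCL2L1, MCL1 and BCL2L2, the pore-forming effector BAK1, the BH3-only genes BCL2L11, BAD, BID, BIK and PMAIP1, and BCL2L12. The RNA came from HEK293T, a human embryonic kidney line, after transfection with a vector for wild-type SF3B1 (WT) or for its R625H, K666T or K700E form, and there was 1 library for each vector. The labels give a plasmid dose of 1000 ng in R625H and in K666T but 2000 ng in K700E, and state no amount for WT. In K700E the substitution and the dose therefore cannot be told apart. Whether R625H and K666T match WT in dose is not known either. The cells keep their own SF3B1 alleles beside the vector. All comparisons with WT share the same WT library, no difference has a replicate check, and every test compares libraries, not conditions.

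SF3B1 is the subunit of the U2 snRNP that holds the branch point of an intron, and the cancer substitutions in its HEAT repeats are known for letting the spliceosome use a different branch point and, with it, an acceptor a short way upstream of the usual one. Survival proteins of the BCL2 family hold BAK1 and BAX in check, and BH3-only proteins release or activate them. Several family genes make isoforms with opposite actions: the long form of BCL2L1 (BCL-xL) protects cells and the short form (BCL-xS) promotes death, and skipping of the middle exon turns MCL1 from a survival gene into one for a BH3-only-like protein. BCL2L11 (BIM) is made in the forms EL, L and S.

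Reads on genes numbered between 82254731 and 90939945 per library, and uniquely mapped reads on junctions between 65939159 and 71945311. SF3B1 had between 505.9 and 520.9 CPM (reads of a gene scaled to a common total of gene reads, with the total set to 1e6) in the 4 libraries, and vector and cellular transcripts were not told apart. Pairs in rows that name no gene, unmapped pairs included, made 21.9% in WT against 28.45 to 29.55% in the mutants, so that the WT library stood apart from all 3 mutants here. The part of this in the differences from WT was not tested. Of 5 genes usually read in HEK293 cells 4 were found, with a summed level between 485 and 584 CPM. The 8 markers of blood, liver and melanocyte lineages summed to between 2.30 and 3.29 CPM. Counts of junction reads for the members ran from 344 for BCL2L1 to 6950 for BCL2L12 in WT, so that BCL2L1 shares carry wide intervals.

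The 1 splicing difference of the family that was called in all 3 mutants lay in the 5′ untranslated region of BCL2L1, on the minus strand of chromosome 20 (hg19). Its coding exon has a pair of annotated acceptors 18 nt apart, with the last intron base at 30310152 for the upstream one and at 30310134 for the downstream one. The start codon begins at 30310021, so the exon carries 130 nt before it when the upstream acceptor is used and 112 nt otherwise. The stretch between the acceptors is shown because its use is what differed. The window is chr20:30310128-30310157, minus strand, and the capitals mark the 18 nt that the upstream acceptor adds to the exon. The letters come from a GENCODE 29 transcript that runs through both sites.
BCL2L1 acceptor pair: ctgaagCTCTTTCTCTCCCTTCAGaatctt
The added stretch holds 8 C, 8 T, 1 A and 1 G, ends in AG and contains no ATG. The bases just before it also end in AG.

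In WT 51 of 168 reads across the pair used the upstream acceptor, 30.4% (Wilson 95% interval 23.9 to 37.7). The upstream acceptor had 73 of 126 reads in R625H, 57.9% (49.2 to 66.2). In K666T it had 94 of 145, 64.8% (56.8 to 72.1), and in K700E 92 of 155, 59.4% (51.5 to 66.8). The WT library was the lowest, and its interval did not overlap that of any mutant library, whereas the 3 mutant intervals overlapped. The upstream share rose by 27.6 points in R625H (interval of the difference 16.2 to 38.1), by 34.5 points in K666T (23.6 to 44.2) and by 28.99 points in K700E (18.3 to 38.8). The adjusted p-values were 5.39e-05, 3.75e-08 and 5.02e-06 in a two-sided Fisher's exact test with Benjamini-Hochberg adjustment over all pairs of acceptors 10 to 30 nt apart. Features were called where the adjusted p was below 0.05 and the shares lay 10 or more points apart. Of all such pairs 2.62% were called in R625H, 2.33% in K666T and 2.36% in K700E. Of the 12 pairs tested in member genes, that of BCL2L1 was the 1 called in each mutant.

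No difference among the mutants was called for this pair, and the intervals leave room for some. R625H minus K666T was -6.89 points (interval -18.3 to 4.66, adjusted p = 0.865), R625H minus K700E -1.41 points (-12.9 to 9.99) and K666T minus K700E 5.48 points (-5.48 to 16.2), the last 2 at an adjusted p of 1. Among all pairs 2.12, 2.21 and 2.13% were called in these comparisons.

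BCL2L1 has several first exons, each of which can join either acceptor. From the first exon with its donor at 30311537, 12 of 61 reads (19.7%) used the upstream acceptor in WT against 30 of 51 (58.8%) in R625H, 28 of 45 (62.2%) in K666T and 21 of 32 (65.6%) in K700E. The upstream share of this donor rose in all 3 mutants, with adjusted p-values of 0.00114, 0.000553 and 0.000821. From the donor nearest the exon, at 30310420, the upstream share was 32.7% of 49 reads in WT against 51.5% of 33 in R625H, 65.4% of 52 in K666T and 65.2% of 46 in K700E. It rose in K666T (adjusted p = 0.0298) and in K700E (0.0364), and in R625H the adjusted p was 0.628. From the farthest donor, at 30311666, the upstream share was 39.3% of 56 reads in WT against 59.1% of 44 in R625H (61.9% of the 42 that entered the pair), 69.6% of 46 in K666T and 55.4% of 74 in K700E, with adjusted p-values of 0.491, 0.0532 and 0.458. WT was thus the lowest library for each of the 3 first exons, also where the test did not pass. At this level 2 of 93 junction shares at a donor were called in members in R625H, 4 of 95 in K666T and 4 of 93 in K700E, against 0.851, 0.878 and 1.1% of all shares tested. Each of these calls is one side or the other of a BCL2L1 first exon.

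**Figure D1:**
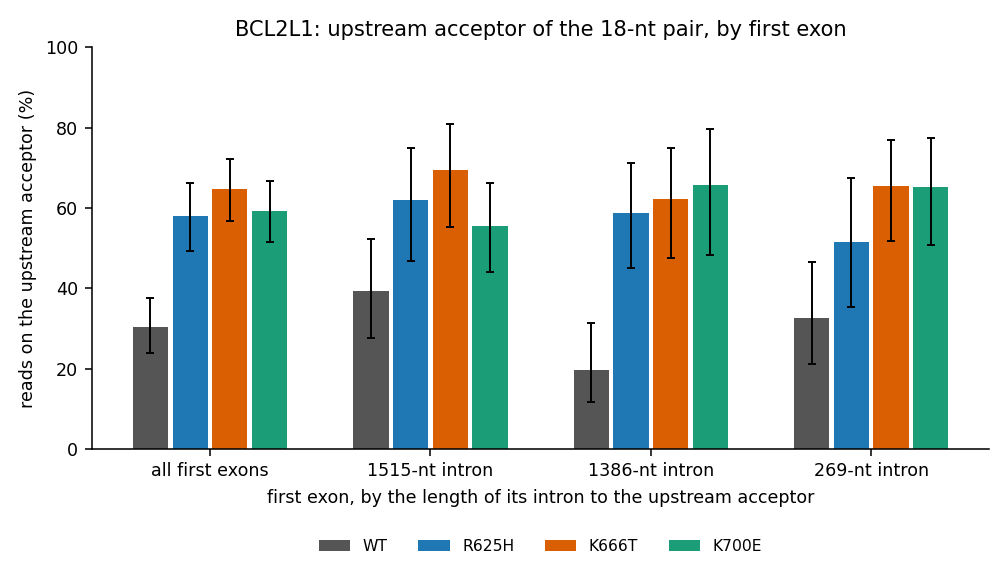
Share of reads on the upstream acceptor of the BCL2L1 pair (y axis, percent) for all first exons together and for the 3 main first exons, named by the length of the intron to the upstream acceptor. Bars are single libraries and error bars Wilson 95% intervals for counting error; WT is lowest in every group, at 30.4% for all first exons.

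The first exons did not give quite the same proportions of the reads entering the downstream acceptor. Of reads entering the downstream acceptor, the donor at 30311537 gave 49 of 117 (41.9%) in WT against 21 of 53 (39.6%) in R625H, 17 of 51 (33.3%) in K666T and 11 of 63 (17.5%) in K700E. This share fell in K700E, by 24.4 points (adjusted p = 0.0302). It also depends on the acceptor choice described above, so it does not measure the use of a first exon by itself. Over both acceptors of the pair, this donor had 61 reads in WT against 51 in R625H, 45 in K666T and 32 in K700E. In the same order the donor at 30311666 had 56, 42, 46 and 74 reads, and that at 30310420 had 49, 33, 52 and 46. Member genes had 0 of 89 acceptor-side shares called in R625H, 1 of 89 in K666T and 2 of 90 in K700E, against 0.496, 0.597 and 1.04% of all shares.

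The 5 acceptor pairs whose differences from WT were closest to those of BCL2L1 were picked among 4125 pairs read at both acceptors in all 4 libraries. The measure was the Euclidean distance between the 3 differences in points. That of DZIP3 (16 nt apart) went from 17.1% in WT to 45.5, 50 and 46.0% in the mutants, taken in the order R625H, K666T, K700E, a distance of 1.78 points. MYRF (15 nt) went from 5.88% to 35.0, 40.6 and 31.6%, and APBB3 (21 nt) from 20% to 50.7, 52.2 and 45.7%. ORAI2 (23 nt) went from 2.5% to 35.5, 38.5 and 28.3%. PI4KAP1 (12 nt) went from 61.9% to 86.2, 91.8 and 90.9%, and as a pseudogene with near-identical copies it is uncertain. Averaged over the 3 mutants, the BCL2L1 difference was the 27th largest rise of the 4125, and other pairs differed by more. Pairs with an acceptor unread in any library, WT included, were not ranked. Both acceptors of DZIP3 and both of PI4KAP1 are unannotated. The 5 like pairs were chosen for their likeness among pairs with at least 20 reads in each library. Their values are a description without counting intervals, so the order of their distances is uncertain.

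**Figure D2:**
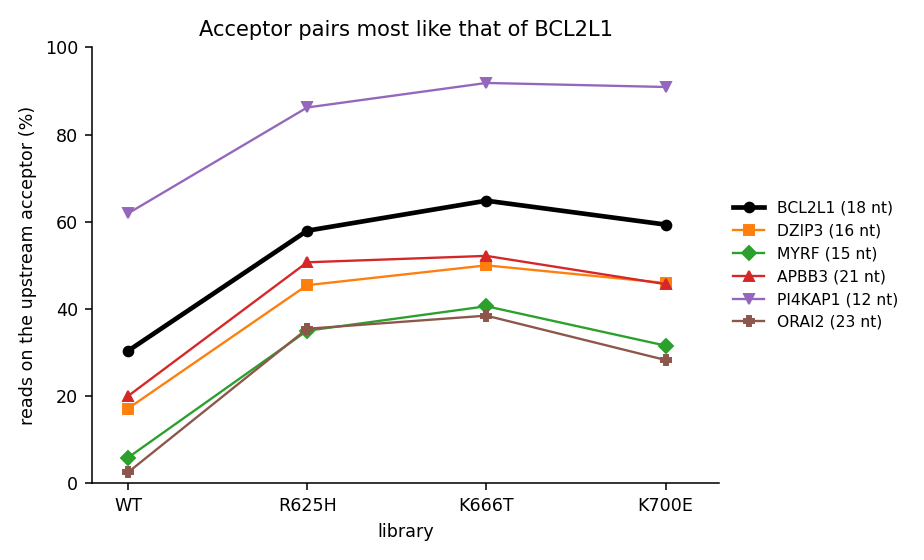
Upstream acceptor share (y axis, percent) in each library (x axis) for BCL2L1, thick black line, and the 5 pairs with the most similar differences from WT. Lines join single libraries; the levels differ between genes, from 2.5% for ORAI2 to 61.9% for PI4KAP1 in WT, while the steps from WT are alike by construction.

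The donor choice that separates BCL-xL from BCL-xS lies at the other end of the same exon. The long form splices from 30309457 and the short form from 30309646, both into 30253890, and the short form lacks 189 nt, 63 codons. The spliced sequences that the counted reads cross are shown with the first bases of the last exon in capitals.
BCL2L1 long junction: gagaacggcggctggGATACTTTTGTGGAA
BCL2L1 short junction: cagagctttgaacagGATACTTTTGTGGAA
The stretch kept only in the long form is shown because it is what the short donor removes. The window is chr20:30309458-30309658, minus strand, with 12 bases of the shared exon first, and the capitals mark the 189 nt. It begins with GT, the donor dinucleotide of the short form.
BCL2L1 long-only stretch: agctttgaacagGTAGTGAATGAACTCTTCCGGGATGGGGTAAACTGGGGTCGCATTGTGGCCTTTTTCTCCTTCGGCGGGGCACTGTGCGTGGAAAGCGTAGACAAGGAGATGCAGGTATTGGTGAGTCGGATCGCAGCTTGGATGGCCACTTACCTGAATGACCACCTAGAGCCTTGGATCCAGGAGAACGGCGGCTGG

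The long junction had 154 reads in WT against 171 in R625H, 161 in K666T and 153 in K700E. The short junction had 8, 15, 16 and 21 reads in the same order. As a share of reads into the last exon, the short donor made 4.76% in WT (2.43 to 9.11) against 7.81% in R625H (interval 4.79 to 12.5), 8.29% in K666T (5.17 to 13.0) and 11.4% in K700E, whose interval was 7.55 to 16.7. WT was the lowest and K700E the highest library, but no difference passed the test: 3.05 points in R625H (interval -2.25 to 8.28, adjusted p = 1), 3.53 in K666T (-1.82 to 8.82, 0.916) and 6.59 in K700E (0.81 to 12.5, 0.327). All 3 differences were also under the 10 points of a call. The long form was the main form in every library.

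In MCL1, on the minus strand of chromosome 1, the middle exon (chr1:150550720-150550967 in hg19, 248 nt) separates the survival form from the short form. It is shown whole because all 4 libraries also read an unannotated acceptor inside it, at 150550819; capitals mark the 149 nt which that acceptor leaves out and lower case the 99 nt it keeps.
MCL1 middle exon: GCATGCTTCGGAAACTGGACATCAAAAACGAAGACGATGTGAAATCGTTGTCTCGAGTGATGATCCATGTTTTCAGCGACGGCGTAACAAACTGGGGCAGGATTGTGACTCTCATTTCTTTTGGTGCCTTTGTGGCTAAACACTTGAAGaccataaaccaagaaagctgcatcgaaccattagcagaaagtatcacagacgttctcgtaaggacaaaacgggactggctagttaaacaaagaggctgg
The left-out stretch ends in AG, and neither its length nor that of the whole exon is a multiple of 3.

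Skipping of the MCL1 middle exon had 30 of 1044 reads at the donor of exon 1 in WT (2.87%) against 42 of 1021 in R625H (4.11%), 50 of 1125 in K666T (4.44%) and 48 of 1236 in K700E (3.88%). The intervals of all 4 libraries overlapped, and the adjusted p-values were 0.717, 0.413 and 0.747. The acceptor inside the exon had 11 reads in WT (1.05%) against 16 in R625H (1.57%), 21 in K666T (1.87%) and 39 in K700E (3.16%). In K700E this share was 2.1 points above WT at an adjusted p of 0.0117, short of the 10 points a call needed. The usual acceptor of the exon kept 96.1% of reads in WT against 93.8, 93.6 and 93.0% in the mutants. The survival form was thus the main MCL1 form in all 4 libraries.

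The S form of BCL2L11, the BH3-only protein BIM, skips the stretch that EL and L hold. On the plus strand of chromosome 2 its donor at 111881447 gave 26 of 122 reads into 111907620 in WT (21.3%) against 18 of 92 in R625H (19.6%), 19 of 91 in K666T (20.9%) and 23 of 97 in K700E (23.7%). The donor shared by EL and L, at 111881717, gave 73.8% in WT and 69.6, 71.4 and 64.9% in the mutants. The 180-nt intron removed in L but kept in EL had 44, 36, 47 and 35 reads. None of the shares into 111907620 was called, and their lowest adjusted p was 0.767.

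**Figure D3:**
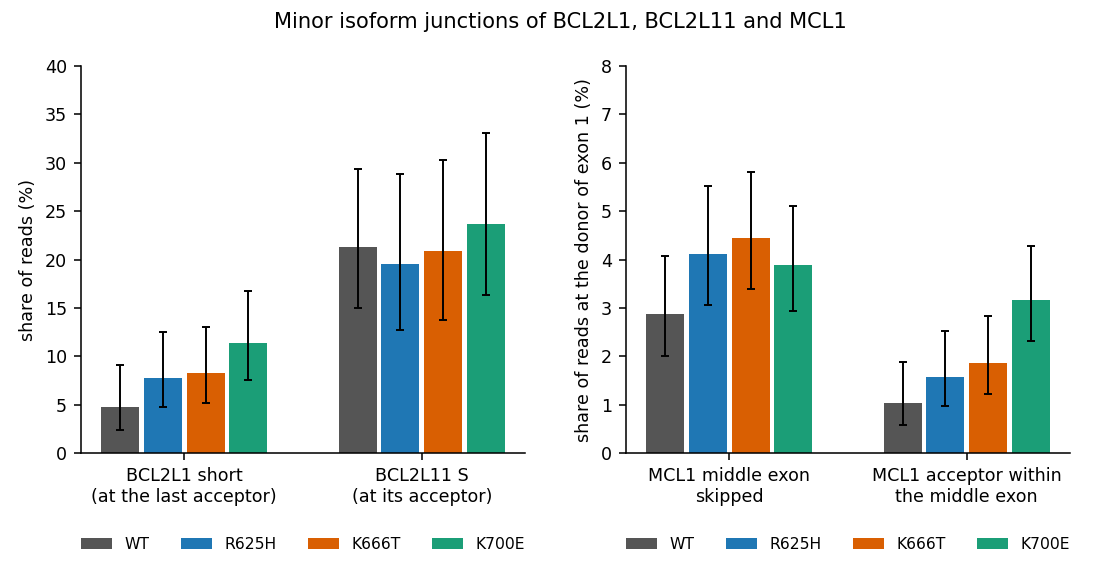
Shares of reads (y axes, percent) on the junctions of the minor forms, with the BCL2L1 short donor and the BCL2L11 S donor on the left and the 2 minor MCL1 junctions on the right, on a finer scale. Bars are single libraries and error bars Wilson 95% intervals; the intervals of WT and K700E do not overlap for the acceptor inside the MCL1 exon (1.05 against 3.16%) and overlap for the other 3.

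BCL2L12, on the plus strand of chromosome 19, differed from WT at its last intron. Of reads into the last exon at 50176954, the junction from 50173746 had 477 of 668 in WT (71.4%) against 407 of 617 in R625H (66.0%), 316 of 539 in K666T (58.6%) and 234 of 416 in K700E (56.3%). This share fell by 12.8 points in K666T (interval of the difference -18.1 to -7.38, adjusted p = 0.000415) and by 15.2 points in K700E (-21.0 to -9.28, 4.12e-05). In R625H the difference was -5.44 points at an adjusted p of 0.567, and neither R625H minus K666T (7.34 points, 0.428) nor R625H minus K700E (9.71 points, 0.0794) was called. The junction that joins the last exon to 50172373 instead, leaving out the 273-nt exon before it, had 132 reads (19.8%) in WT against 129 (20.9%) in R625H, 149 (27.6%) in K666T and 115 (27.6%) in K700E, with adjusted p-values of 1, 0.0677 and 0.0726. In K700E this skipping junction thus had a larger share but fewer reads than in WT.

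The same 273-nt exon was called as a cassette in K700E, with inclusion at 85.4% in WT against 78.5% in R625H, 76.8% in K666T and 70.1% in K700E (-15.35 points, adjusted p = 0.0102). This value rests on the last intron again: the junction that enters the exon from 50170057 had 3, 1, 2 and 0 reads. A minor 133-nt form of a second BCL2L12 exon was also called in K700E (77.4% of 31 in WT, 17.2% of 29 in K700E, adjusted p = 0.00037). It uses an unannotated acceptor at 50172288 with 32 reads in WT against 0 in R625H, 21 in K666T and 0 in K700E. With 21 reads in K666T, that acceptor did not separate WT from the mutants. The skipping junction, from 50172195 to 50173472, had 7 reads in WT against 9 in R625H, 3 in K666T and 24 in K700E. Against the same junction, the main 92-nt form was included at 99.2% in WT. Its inclusion was 98.96% in R625H, 99.7% in K666T and 97.3% in K700E, and it was not called. The second exon was thus nearly always included in all 4 libraries. Of member cassette exons 0 of 135 were called in R625H, 0 of 136 in K666T and 2 of 135 in K700E, against 0.396, 0.477 and 0.724% of all exons tested. Between K666T and K700E 1 of 134 member exons was called, in BID, against 0.414% of all, and 1 of 100 donor shares, in BCL2L1, against 0.758%. In R625H the acceptor pair, donor, acceptor and cassette comparisons of the members held the BCL2L1 calls alone.

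Other BCL2L12 shares passed the adjusted p but not the size. The junction that skips the third exon, from 50170057 to 50172107, had 278 of 1731 reads in WT (16.1%) against 228 of 1725 in R625H (13.2%), 210 of 1753 in K666T (11.98%) and 217 of 2543 in K700E (8.53%). The adjusted p-values were 0.221, 0.0131 and 1.03e-11, for differences of -2.84, -4.08 and -7.53 points. WT was the highest and K700E the lowest library. The first BCL2L12 intron had 1875, 1937, 2019 and 3149 reads in WT, R625H, K666T and K700E, so K700E had more reads on the first introns and fewer on the last.

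That slope along the gene was common in K700E. Over 10040 genes the balance of junction reads between the 5′ and the 3′ side of a gene differed from WT by a median of 0.15 (log2) in K700E, with 71.4% of genes above 0, and by 0.01 in R625H and -0.01 in K666T. In K700E the first and last annotated introns of BCL2L12 differed from WT by 0.77 and -1.01 (log2, per junction read). BIK, a BH3-only gene of the endoplasmic reticulum, went from 1.04 on its first intron to -1.12 on its last, on 116 and 32 reads in WT. BID went from -0.41 to -0.99, BAK1 from 0.51 to -0.16 and BAD from 0.28 to -0.37. In K666T the BCL2L12 introns went from 0.18 on the first to -0.52 on the last. The part of this slope in the BCL2L12 calls was not tested.

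**Figure D4:**
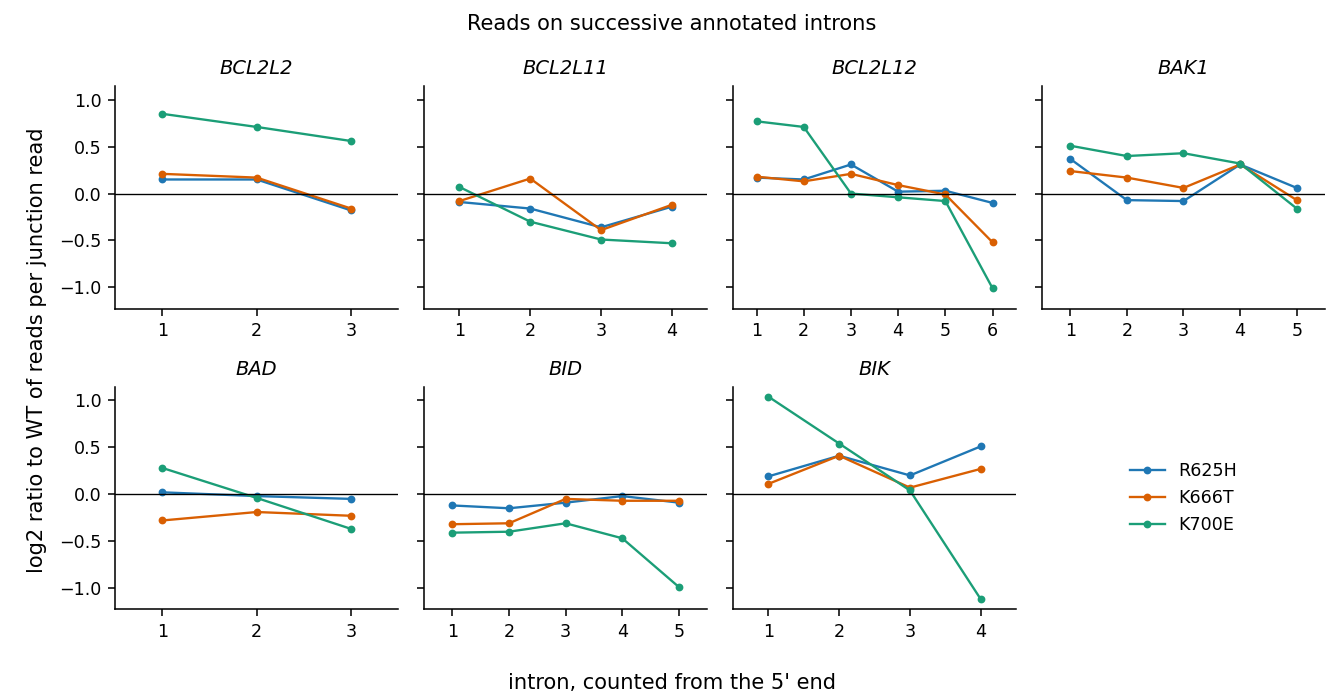
Log2 ratio to WT of reads on successive annotated introns (x axis, counted from the 5′ end), each divided by the junction reads of its library, for the 7 members with 3 or more introns of at least 20 reads in WT. Points are single libraries joined by lines; the K700E line ends below where it starts in all 7, from 0.77 to -1.01 in BCL2L12.

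BAK1 forms the pore with BAX. At its donor at 33545311 the usual acceptor, 33543706, held 558 of 573 reads in WT (97.4%) against 487 of 529 in R625H (92.1%), 598 of 628 in K666T (95.2%) and 726 of 787 in K700E (92.3%). The differences of -5.32, -2.16 and -5.13 points had adjusted p-values of 0.00221, 0.459 and 0.00119, below the 10 points of a call. An unannotated acceptor 62 nt farther on, at 33543644, had 7 reads in WT against 22, 9 and 15 in the mutants, and the junction that skips the exon had 8, 11, 20 and 31.

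BID, which is cleaved by caspase 8 to activate the effectors, differed by less than 10 points from WT at each junction tested. Joining of the first exon at 18257146 straight to 18222255 made 26.8% of 996 reads in WT against 30.1% of 861 in R625H, 27.4% of 748 in K666T and 34.5% of 821 in K700E, with an adjusted p of 0.0111 in K700E for 7.66 points. BAD, a BH3-only protein held back by phosphorylation, had an unannotated acceptor 3 nt beyond the usual one with 0 reads in WT against 0 in R625H, 14 in K666T and 7 in K700E, at most 2.62% of the donor. The 0 reads allow a share of up to 0.469% in WT and 0.531% in R625H, at 3 counts of the total. The single main intron of PMAIP1 (NOXA), a BH3-only protein that binds MCL1, held between 96.8 and 97.7% of reads at its donor in the 4 libraries, and the lowest adjusted p of a BIK share was 0.544.

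BCL2L2 (BCL-w), on the plus strand of chromosome 14, lies before PABPN1, and its donor at 23777409 is read both into its own next exon and onward into PABPN1. From the same donor, an unannotated junction to 23780181, also within BCL2L2, had 6, 19, 10 and 11 reads in WT, R625H, K666T and K700E. Reads that ran on into PABPN1 were 98 of 209 in WT (46.9%, interval 40.2 to 53.7) against 119 of 223 in R625H (53.4%, 46.8 to 59.8), 137 of 235 in K666T (58.3%, 51.9 to 64.4) and 135 of 296 in K700E (45.6%, 40.03 to 51.3). The junction to the BCL2L2 exon itself made 49.3, 37.2, 37.5 and 50.7%, and differed by -12.1 points in R625H (adjusted p = 0.163), -11.8 in K666T (0.162) and 1.39 in K700E (1). R625H and K666T lay on 1 side and K700E with WT on the other, without passing the test. The summed readthrough share had no test of its own. The part of plasmid amount, not stated for WT, was not tested.

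Of the 10 members 0 were at least 2-fold from WT in any mutant, against 0.68% of 14847 genes in R625H, 0.7% in K666T and 1.74% in K700E, a background at which 0 of 10 says little about the family. The median log2 ratio of the members was 0.06 in R625H, 0.06 in K666T and 0.21 in K700E, beside -0.02, 0.00 and 0.00 over all genes. In K700E the member median lay above the upper quartile of all genes, 0.16, but the members went both ways. There 6 members, MCL1, BCL2L2, BCL2L12, BAK1, BIK and PMAIP1, had ratios above those of 78.3 to 96.5% of genes. The other 4, BCL2L11, BCL2L1, BAD and BID, had ratios below 0, above those of 47.9, 43.4, 25.2 and 6.8% of genes. These ratios have no test, and their 95% intervals cover counting error. In bulk RNA, a difference in the share of transfected cells and one in the RNA of each cell cannot be told apart.

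Per kilobase of exon, PMAIP1 was the most abundant member in WT at 67.0 CPM per kb, followed by MCL1 at 57.8, BAK1 at 28.8, BCL2L12 at 26.4, BAD at 22.2 and BID at 11.8. BCL2L1 had 8.06, BCL2L2 6.84, BCL2L11 4.83 and BIK 4.48 CPM per kb. Without replicates, which neighbours in this order differ beyond library spread is not known.

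Among the survival genes, MCL1 had 253 CPM in WT against 275, 275 and 287 in the mutants, log2 ratios of 0.12, 0.12 and 0.18. BCL2L1 had 26.7, 24.9, 24.8 and 26.1 CPM, log2 ratios of -0.10, -0.10 and -0.04. The counting interval of the BCL2L1 ratio held 0 in K700E (-0.12 to 0.05) and lay below 0 in R625H and K666T. BCL2L2 had 28.6, 25.8, 30.6 and 34.7 CPM, lower than WT in R625H (-0.15) and higher in K700E (0.28). A read that overlaps both BCL2L2 and its readthrough gene may have been left uncounted, since 813 nt of their exons are shared. Apart from the survival genes, BCL2L12 had 58.5, 63.8, 61.3 and 71.7 CPM, with a K700E ratio of 0.29.

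Of the 10 members PMAIP1 had the highest ratio in each mutant, with 149.7 CPM in WT against 183 in R625H, 181 in K666T and 229.6 in K700E. All 3 mutant libraries were above WT, by log2 ratios of 0.29 (0.25 to 0.32), 0.27 (0.24 to 0.31) and 0.62 (0.59 to 0.65), and K700E lay above 96.5% of all genes in its ratio. BID had the lowest ratio in K700E, with 52.4, 51.3, 48.5 and 40.7 CPM and a log2 ratio of -0.36 (-0.43 to -0.30), where 6.8% of genes lay lower. BAK1 had 63.7, 69.0, 66.3 and 77.1 CPM, with a K700E ratio of 0.28 (0.22 to 0.33). BAD had 37.9, 36.3, 33.3 and 34.3 CPM, with a K700E ratio of -0.14 that was -0.47 in unstranded counts. GPR137 lies on the opposite strand over 404 nt of the BAD exons, and its part in that shift was not tested. BCL2L11 had 32.2, 32.4, 33.3 and 31.9 CPM, and BIK, with between 388 and 421 reads, 4.27, 4.85, 4.62 and 5.07 CPM.

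**Figure D5:**
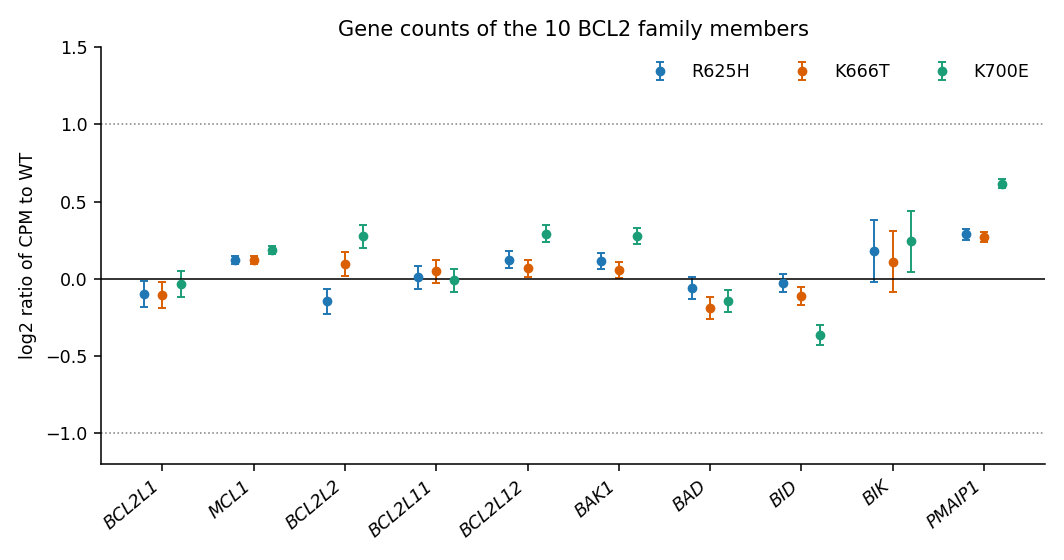
Log2 ratio of CPM to WT (y axis) for the 10 members in the 3 mutant libraries, with 95% intervals for counting error. Dotted lines mark a 2-fold difference, which no member reached; PMAIP1 in K700E is highest at 0.62 and BID in K700E lowest at -0.36.

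Of 11 other family genes 7 had at least 1 CPM in some library, and 0 were 2-fold from WT. BBC3 (PUMA), a BH3-only target of p53, had 25.4 CPM in WT against 34.7, 31.8 and 33.9 in the mutants, log2 ratios of 0.45, 0.33 and 0.42. BAX, the second effector, had ratios of 0.22, 0.13 and 0.21. BCL2 had 0.18, 0.24 and 0.16, and BCL2L13, a mitochondrial family protein, 0.05, 0.07 and 0.17. BMF, a BH3-only gene, had -0.16, -0.18 and -0.21, BOK -0.25, -0.01 and -0.27, and HRK 0.06, 0.01 and -0.07.

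Downstream of the family, 0 of 23 genes of the mitochondrial pathway were 2-fold from WT in any mutant, with medians of -0.01, 0.02 and 0.00. The inhibitor of apoptosis BIRC3 had a ratio of 0.53 in K700E. The mitochondrial nuclease ENDOG had the lowest, -0.41, -0.36 and -0.78 in R625H, K666T and K700E, and the apoptosome caspase CASP9 was next at -0.13 in K700E. Of 19 proteins known to act on BCL2L1 or MCL1 splicing 0 were 2-fold apart. In K700E RBM4 at 0.42 and SRSF5 at 0.29 were the highest of them, and SRSF9 at -0.20 and SRSF2 at -0.16 the lowest. The 4 enzymes that add or remove ubiquitin on MCL1 ranged from -0.16 to 0.26 over the mutants, with FBXW7 at 0.25 and HUWE1 at 0.01 the highest and USP9X at -0.09 and BTRC at -0.04 the lowest in K700E.

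PMAIP1 is known to answer to p53, to the integrated stress response and to interferon signalling, and those lists are given beside it. Of 17 p53 targets 0 were 2-fold from WT, with medians of 0.21, 0.15 and 0.19. PLK3 at 0.70 and SESN2 at 0.45 were highest in K700E, and CCNG1 at -0.16 and SESN1 at -0.12 lowest. Of 8 genes of the integrated stress response, SESN2 again among them, 0 were 2-fold apart, with medians of 0.21, 0.35 and 0.24. ATF3 at 0.84 and DDIT3 at 0.81 were highest in K700E, and VLDLR at -0.27 and ATF4 at 0.04 lowest. Of 9 interferon response genes measured, those at least 2-fold above WT numbered 9 with R625H, 8 with K666T and 9 with K700E, with medians of 2.78, 2.25 and 5.32. IFIT1 had 29.7 CPM in WT against 204, 142 and 1192 in the mutants. Log2 ratios in K700E were 6.22 (IFIT2), 6.21 (IFIT3), 4.40 (ISG15), 6.42 (OAS1), 6.83 (OAS2), 4.54 (OAS3) and 3.13 (IRF7). K700E was thus the highest library for PMAIP1 and for the interferon genes alike, and the part of these responses in the PMAIP1 level was not tested.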

How the data were processed

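The deposited values are raw counts of reads for each gene and each splice junction of 4 libraries. The submitters' processing notes name STAR 2.5.3a, HTSeq and hg19/GRCh37; the sources used here do not give other settings. Pairs in rows that name no gene were left out, 21.9% in WT and 28.45 to 29.55% in the mutants. The deposited longest overhang of a junction, in nt, was used in 1 alternative. Counts on the strand opposite to read 1 were used for genes and uniquely mapped reads for junctions. Junctions were named by matching the intron lengths of GENCODE 29 genes to the hg19 junctions (16145 of 18243 coding genes with 2 or more introns); sequences come from its GRCh38 transcripts. Donors and acceptors are given as the first and last intron base.

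Acceptor pairs, junction shares at a donor or an acceptor (of at least 1% in some library) and cassette exons of up to 500 nt were tested with at least 20 reads in both libraries, by Fisher's exact test adjusted over each whole table. Wilson intervals and floors cover counting error. Log2 ratios of CPM used a prior count of 10 and genes of at least 1 CPM. Scripts ran in Python 3.11.15 with numba 0.67.0; edgeR 4.0.16 gave TMM factors for 1 alternative. The Fisher code was checked on random tables, and the calling of acceptor pairs on simulated reads for R625H against WT. The other procedures were not tested on simulated data. All members were named, and their junctions where called or where they separate known isoforms; of other lists, genes 2-fold from WT or else the 2 highest and 2 lowest in K700E. Members and lists were chosen with earlier results of these data known. The gene name table did not match 1 listed interferon gene, and MX1 was below 1 CPM. Some genes that the rule would name are not reported here.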

Additional observations from a re-analysis of the deposited data

Results flagged for a closer look

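Of the member features, 2 differed between mutant libraries by the same test and size that were used against WT. At the short donor of BCL2L1, at 30309646, the annotated junction had 16 of 29 reads in K666T and 21 of 21 in K700E, a difference of -44.83 points at an adjusted p of 0.00724 by Fisher's exact test, where 0.758% of all donor shares were called. The other 13 reads in K666T lay on 3 unannotated junctions that had 0 reads in the other 3 libraries, of 7, 4 and 2 reads. The 211-nt exon of BID was included at 62.1% in K666T and 51.3% in K700E, 10.82 points apart at an adjusted p of 0.0361, where 0.414% of all exons were called; WT lay between them at 58.6% and R625H at 55.1%. K666T and K700E also differed in plasmid amount.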

How the results depend on the processing

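No paired analysis was possible because each group has 1 library. The BCL2L1 upstream share stayed called in each mutant under all 6 alternatives, between 24.4 and 34.5 points, with adjusted p-values up to 0.000166. Only adding multi-mapped reads changed the differences, to 24.4 points in R625H, 32.5 in K666T and 28.1 in K700E. The other alternatives left the reads of this pair as they were, so they could hardly undo the call. The BCL2L12 last intron stayed called, at -13.3 to -12.8 points in K666T and -16.6 to -15.2 in K700E, where again only multi-mapped reads changed the differences. Counts of called member features moved by over 1.5 times in 13 of 72 cases. With multi-mapped reads added, donor shares called in K666T were 7, acceptor shares 2 in R625H, 3 in K666T and 7 in K700E, and cassette exons 1 in R625H and 7 in K700E. With at least 50 reads, donor shares called were 0 in K666T and 0 in K700E, since the BCL2L1 first exons have fewer reads, and cassette exons 1 in K700E. With a call at 5 points, donor shares were 8 in K700E, acceptor shares 3 in K666T and cassette exons 2 in K666T. With each site read in all 4 libraries, cassette exons called were 0 in K700E, since both BCL2L12 exons then leave the test. Of 150 log2 ratios of members under other scalings, prior, strand or filter, 149 moved by less than the counting interval or kept their value; that of BAD in K700E was -0.47 unstranded. Without the filter on low values, genes 2-fold from WT numbered 213, 226 and 527 in place of 101, 104 and 259. Over all features, calls in R625H, K666T and K700E numbered 574, 513 and 519 acceptor pairs, 2132, 2211 and 2776 donor shares, 1053, 1272 and 2231 acceptor shares and 1159, 1403 and 2132 cassette exons. Adding multi-mapped reads gave 1088, 963 and 1026 pairs, 8534, 9109 and 10295 donor shares, 6989, 7941 and 9704 acceptor shares and 16711, 18159 and 20225 exons. With each site read in all 4 libraries there were 201, 141 and 139 pairs, 1026, 1080 and 1634 donor shares, 357 and 614 acceptor shares in R625H and K666T, and 158, 259 and 612 exons. With at least 50 reads there were 374, 315 and 331 pairs and, in R625H and K666T, 616 and 808 acceptor shares and 688 and 907 exons. A call at 5 points gave 924, 820 and 830 pairs, 4637, 4953 and 5899 donor shares and, in K666T and K700E, 2119 and 3770 acceptor shares and 2108 and 3356 exons. A single library per group leaves biological and technical spread unmeasured.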

Other observations

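Some unannotated junctions of the members were read in only part of the libraries. With 1 library per vector, a difference between vectors and one between libraries cannot be told apart here. In MCL1 the junction 150548138 to 150548228 had 77 reads in WT and 0 in each mutant. In PMAIP1 the junction 57570094 to 57570281 had 104 reads in WT, 75 in K700E and 0 in R625H and K666T. In BAK1 the junction 33541016 to 33541053 had 46 reads in K666T and 0 elsewhere, and 33541497 to 33541603 had 21 in WT and 0 elsewhere. In BCL2L12 an acceptor 15 nt past that of the second exon, at 50169956, had 23 reads in R625H, 27 in K700E and 0 in WT and K666T, at most 1.17% of its donor. The 0 reads allow a share of up to 0.16% in WT and 0.149% in K666T.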
